A study of Homo sapiens with 4 samples.

Results

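The ubiquitin-conjugating enzyme genes whose symbols start with UBE2 and the ubiquitin-specific protease genes whose symbols are USP and a number were followed across 4 RNA sequencing libraries of HepG2, a human liver cancer line. Of 98 rows whose symbol fits this naming rule, 40 were UBE2 and 58 were USP rows. Averaged over the 4 libraries, 73 of them reached a normalized count of 5 and were taken, 30 UBE2 and 43 USP genes, out of 11212 genes that pass the same limit and 23368 rows in the table. A normalized count is the number of reads of a gene divided by 1 scaling factor per library. A further 15 rows were at 0 in all 4 libraries, among them USP26, USP29 and USP51, and 10 were above 0 with a mean under 5, among them USP18, USP44 and UBE2V1. Closest above the limit were UBE2Q2P1 with a mean of 5.52 and UBE2E2 with 5.81, and closest below it UBE2S with 4.51 and UBE2MP1 with 4.35. The symbols do not guarantee an enzyme. UBE2Q2P1 is a pseudogene, USP6NL encodes a GTPase-activating protein for Rab proteins, and USP39 is a splicing factor with the USP fold and no catalytic activity.

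Ubiquitin is activated by an E1 enzyme, passed to the active-site cysteine of an E2 enzyme and moved from there to a substrate, usually with an E3 ligase that holds both. The E2 often sets which chain is built, and deubiquitinases, of which the USP family is the most numerous in human cells, take ubiquitin off again. PJA1, the gene targeted by the hairpin here, encodes an E3 ligase with a RING domain, a class that works directly with E2 enzymes. In TGF-beta signalling, ubiquitin is added to and removed from the receptors and the SMAD proteins, and USP4, USP9X, USP11 and USP15 are known to act on these proteins.

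Each condition had 1 library. The library titled shPJA/TGFb1 is, by its title, of cells with a lentiviral hairpin against PJA1 that also received TGF-beta1, but its treatment label says water, and it is placed here by its title. The TGFb1 library is of cells given TGF-beta1, at 200 pM for 1 hour in the protocol, and the labels do not say whether they carried a control hairpin. The shPJA1 library is of cells with the PJA1 hairpin alone. The shCtrl library is of cells with a control hairpin. All 4 libraries are of 1 line, and those with a hairpin are of pools of infected cells. The hairpin lowers the RNA of a gene without removing the gene. If the TGFb1 cells carried no hairpin, comparisons with that library also set infected against uninfected cells, which cannot be told apart here.

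Reads assigned to genes numbered 990698 in the library titled shPJA/TGFb1, 2848665 in TGFb1, 1784689 in shPJA1 and 1363318 in shCtrl. PJA1 had normalized counts of 9.78 in the library titled shPJA/TGFb1, 38.2 in TGFb1, 15.3 in shPJA1 and 50.3 in shCtrl. SMAD7, a gene that SMAD signalling induces, had 158 in the library titled shPJA/TGFb1, 168 in TGFb1, 69.3 in shPJA1 and 83.0 in shCtrl. PJA1 was thus lower in the disputed library than in shCtrl, on which the treatment label is silent. SMAD7 was near its level in TGFb1, which goes with the title and not with water. Of 8 hepatocyte markers, all were detected in every library, with ALB between 3222 and 3617, HNF4A between 205 and 359 and FGB between 8.15 and 28.1. Of 7 markers of leukocytes, endothelium and fibroblasts, PTPRC, CD3E and CDH5 were at 0 in all libraries, and the 7 together summed to 21.2 in the library titled shPJA/TGFb1, 7.40 in TGFb1, 10.8 in shPJA1 and 10.5 in shCtrl. With 1 library per condition no difference has a replicate check. Ratios are given with exact 95% intervals of 2 read counts, which cover counting error only, and a difference is called where that interval excludes 1.

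The sequences just before the start sites of USP34, USP47 and USP53 are shown because these 3 genes had counting intervals that excluded 1 in opposite directions in comparisons without a shared library, as described further on. In the pair of hairpin comparisons they were 4.11% of the 73 genes, beside 2.2% of all genes with such opposite intervals, and 0 of the 73 were called in the same direction in both, beside 0.455% of all genes. The sequences come from RefSeq on build GRCh38.p14 and cover the 150 bases before the start given there. The bases just after that start were found near the beginning of 3 GENCODE transcripts of USP47 and 2 of USP53. For USP34 they were found in 0, so its start was not borne out by that check. USP34 lies on the minus strand at chr2:61471088-61471237, USP47 on the plus strand at chr11:11841822-11841971 and USP53 on the plus strand at chr4:119212563-119212712. Each is written 5′ to 3′ on the strand of its gene, with CG dinucleotides in capitals.
USP34: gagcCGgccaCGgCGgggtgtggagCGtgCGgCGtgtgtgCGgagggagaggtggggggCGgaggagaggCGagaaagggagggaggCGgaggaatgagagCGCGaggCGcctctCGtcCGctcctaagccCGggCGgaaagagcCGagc
USP47: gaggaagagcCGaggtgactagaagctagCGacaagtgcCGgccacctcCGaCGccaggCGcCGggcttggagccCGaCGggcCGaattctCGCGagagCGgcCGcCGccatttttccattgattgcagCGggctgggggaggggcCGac
USP53: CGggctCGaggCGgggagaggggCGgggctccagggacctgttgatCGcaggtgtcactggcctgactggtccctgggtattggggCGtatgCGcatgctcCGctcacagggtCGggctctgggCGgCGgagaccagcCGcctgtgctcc
The USP34 window held 18 CG dinucleotides, the USP47 window 17 and the USP53 window 12, at GC contents of 72.7%, 68.0% and 70.7%. The table had 81 entries for 59 of the 73 genes. Their median was 17 CG dinucleotides and 72.7% GC, beside 7 and 60% over all 35116 entries, and at least 10 CG dinucleotides stood in 84% of the windows of UBE2 and USP genes and in 42.8% of all windows. The letters CAGAC, the core of SMAD binding sites, read on both strands, were in 17.3% of the windows of these genes and in 23.6% of all windows. TGANTCA, the letters bound by AP-1 factors, also read on both strands, was in 0 of the 81 windows and in 4.17% of all. Neither was in the 3 windows shown, which says only that these letters are not in these 150 bases. The 35116 entries were not filtered by level, whereas the 73 genes had passed the limit on the mean. The shares of windows are thus of unlike sets, and no trait of the UBE2 and USP genes is read from them.

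The levels of these genes differed widely from one another and little between libraries. Before scaling for length, the median of the mean counts was 90.4 for the UBE2 and 128 for the USP genes, an order that the scaling turns round. Counts were divided by the length of 1 GENCODE release 29 transcript per gene so that genes can be compared. The longest basic protein-coding transcript was taken where there was any, so a gene read mainly from a shorter transcript stands too low. On that scale the UBE2 genes had a median level of 34.3 per kb, between 2.11 for UBE2E2 and 141 for UBE2Z, which takes ubiquitin from the second E1 enzyme, UBA6. The USP genes had a median level of 25.3 per kb, between 2.93 for USP20 and 115 for USP7, which stabilises MDM2 and p53. Below UBE2Z and USP7 in the order came UBE2R2, a partner of cullin-RING ligases that builds lysine 48 chains, with 103 per kb. It was followed by UBE2A, which modifies the DNA clamp PCNA and histone H2B, with 95.6 per kb. USP34, a large protease linked to axin, had 92.9 per kb. In between, the ranges of neighbouring genes over the 4 libraries mostly overlapped, as the plot of levels shows.

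**Figure D1:**
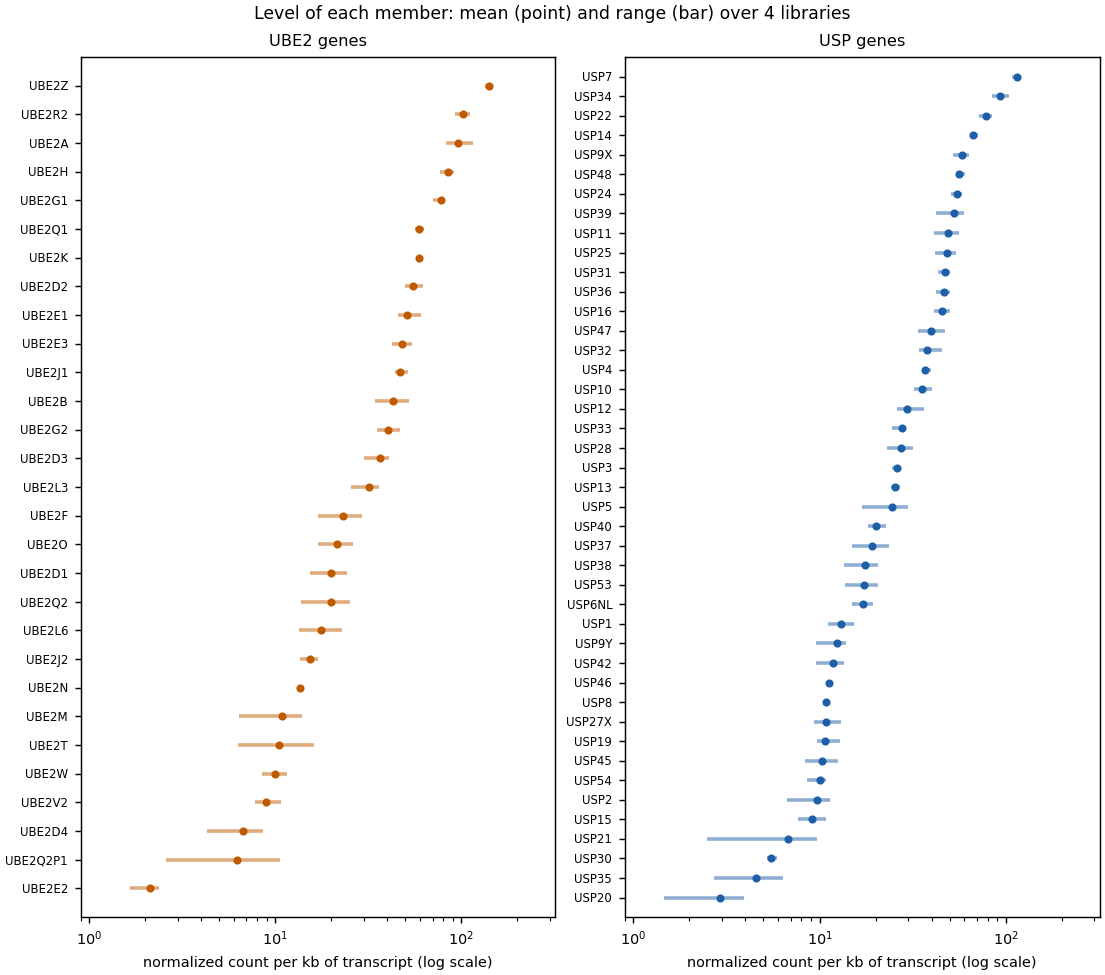
Level of 29 of the 30 UBE2 and of all 43 USP genes as normalized count per kb of transcript, on a log scale, with the mean over 4 libraries as a point and the lowest to highest library as a bar. The means run between 2.11 and 141 for UBE2 genes and between 2.93 and 115 for USP genes, while most bars are short.

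For 54 of the 73 genes the highest library was less than 1.5 times the lowest, 20 of 30 UBE2 and 34 of 43 USP genes, and the median of highest over lowest was 1.32. The steadiest was UBE2K, which extends lysine 48 chains, with 306 in the library titled shPJA/TGFb1, 309.8 in TGFb1, 319 in shPJA1 and 305 in shCtrl. UBE2N, the lysine 63 chain E2, had 68.5 in the library titled shPJA/TGFb1, 72.3 in TGFb1, 68.4 in shPJA1 and 72.5 in shCtrl, though NUDT4 on the other strand overlaps 39.3% of its exons and the counting is not stated to use strand. USP8, a protease of endosomes, had 202 in the library titled shPJA/TGFb1, 214 in TGFb1, 213 in shPJA1 and 199.9 in shCtrl. These 3 genes differed by less than 1.5-fold between any pair of libraries. The 7 genes at or beyond 2-fold were UBE2D4, UBE2M, USP35, UBE2T, USP20, USP21 and UBE2Q2P1, all of low counts, and 6 of them had under 20 reads in at least 1 library. Altogether 47 genes had at least 50 reads in every library and 9 had under 20 in at least 1. The UBE2 genes took 0.262% of the reads of the library titled shPJA/TGFb1, 0.251% in TGFb1, 0.258% in shPJA1 and 0.252% in shCtrl. The USP genes took 0.512% in the library titled shPJA/TGFb1, 0.577% in TGFb1, 0.544% in shPJA1 and 0.519% in shCtrl. In bulk RNA, fewer cells expressing a gene and less RNA per cell cannot be told apart.

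With the PJA1 hairpin, most USP genes stood slightly higher than in shCtrl, and few differed by more than counting error. Between shPJA1 and shCtrl, 9 of the 73 genes had an interval above 1, beside 5.85% of all genes, and 2 had one below 1, beside 5.23% of all genes. Together these were 15.1% of the 73 genes, beside 11.1% of all genes. At a mean of at least 20 they were 10 of 66 genes, beside 13.2% of all such genes. On the log2 scale with 1 added to each count, 2 genes were at least 1.5-fold higher, beside 6.51% of all genes, and 1 was at least 1.5-fold lower, beside 6.84%. The median log2 ratio was 0.07 for the 73 genes, 0.08 for the UBE2 genes and 0.07 for the USP genes, with 34 of 43 USP genes above 0 and 18 of 30 UBE2 genes. Over all genes the median was 0.00 and 50.6% were above 0. With a trend in GC content subtracted, described further on, the median of the 73 genes was 0.04.

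The largest ratio was that of USP21, which removes ubiquitin from histone H2A, with 18.9 in shPJA1 and 5.84 in shCtrl, a ratio of 3.24 (1.19 to 10.98). It rests on 21 and 5 reads. UBE2Q2, an E2 with a long N-terminal region, had 79.2 in shPJA1 and 43.2 in shCtrl, a ratio of 1.83 (1.23 to 2.77). USP53, a protein of tight junctions whose loss is linked to inherited cholestasis, had 123 in shPJA1 and 83.0 in shCtrl, a ratio of 1.49 (1.11 to 2.01). These 3 were the highest of the called genes. UBE2L3, the E2 of HECT and RBR ligases such as parkin, had 106 in shPJA1 and 77.1 in shCtrl, a ratio of 1.38 (1.01 to 1.89). USP38, known to act on the kinase TBK1, had 127 in shPJA1 and 94.7 in shCtrl, a ratio of 1.34 (1.01 to 1.78). USP25, a protease of immune signalling and a close relative of USP28, had 289.9 in shPJA1 and 222 in shCtrl, a ratio of 1.31 (1.09 to 1.57). Smaller called ratios were those of USP47, which acts on DNA polymerase beta, at 1.21 (1.02 to 1.43), of UBE2H, the E2 of the CTLH ligase, at 1.19 (1.03 to 1.37), and of USP34 at 1.13 (1.03 to 1.23). On the lower side, USP22, the H2B deubiquitinase of the SAGA complex, had 375 in shPJA1 and 442 in shCtrl, a ratio of 0.850 (0.738 to 0.979). Leaving out USP34, 5 of the 9 named calls of this comparison were kept with the GC trend subtracted. Those of USP53, USP38, USP47 and USP22 were lost, as was that of USP34, at 1.05 (0.960 to 1.15).

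By role, the E2 enzymes that serve many RING ligases, UBE2D1 to UBE2D4, UBE2E1 to UBE2E3 and UBE2W, had 7 of 8 log2 ratios above 0 between shPJA1 and shCtrl and 0 called, with a median of 0.24. Both E2 enzymes of NEDD8, UBE2M and UBE2F, had ratios below 1, and 0 were called. UBE2F had 36.0 in shPJA1 and 54.9 in shCtrl, a ratio of 0.656 with an interval that reaches 1.02. It was called once the GC trend was subtracted, at 0.633 (0.405 to 0.986). It shares 25.5% of its transcript, in stretches of 50 bases, with the UBE2F-SCLY readthrough gene and other sequence. The 3 E2 enzymes of degradation from the endoplasmic reticulum (UBE2G2, UBE2J1 and UBE2J2) had ratios between 0.953 and 1.16, none called. None of the 4 USP genes that act on TGF-beta receptors and SMADs was called, with ratios of 1.08 for USP15, 1.02 for USP9X, 0.889 for USP4 and 0.839 for USP11.

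TGF-beta1 in the absence of the PJA1 hairpin went with more genes called higher than lower among the 73. Between TGFb1 and shCtrl, 19 of the 73 genes had an interval above 1, beside 10.8% of all genes, and 4 had one below 1, beside 9.29%. Together these were 31.5% of the 73 genes, beside 20.1% of all genes. Counting intervals narrow with reads, and at a mean of at least 20 they excluded 1 for 20 of 66 genes, beside 24.2% of all such genes. The 19 of the 73 called higher were 14 of 43 USP and 5 of 30 UBE2 genes. The 4 called lower were 1 USP and 3 UBE2 genes. USP genes had more reads, with a median mean count of 128 beside 90.4 for UBE2 genes, which narrows their intervals. At least 1.5-fold higher were 5 genes, beside 5.95% of all genes, and at least 1.5-fold lower were 4, beside 8.91%. The median log2 ratio was 0.11 for the 73 genes, 0.15 for the USP genes with 35 of 43 above 0, and -0.02 for the UBE2 genes with 14 of 30 above 0. Over all genes the median was 0.00, and 50.2% were above 0. Subtracting the GC trend gave a median of 0.06 for the 73 genes, of 0.10 for the USP genes and of -0.05 for the UBE2 genes.

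USP37, which opposes the anaphase-promoting complex at entry into S phase, had 191 in TGFb1 and 120.4 in shCtrl, a ratio of 1.58 (1.27 to 2.0). VIL1, on the other strand, overlaps 35.4% of its exons. UBE2D1, the E2 long used with many RING ligases, had 64.4 in TGFb1 and 40.9 in shCtrl, a ratio of 1.57 (1.07 to 2.37). Both were above 1.5-fold, as was USP38, with 145 in TGFb1 and 94.7 in shCtrl and a ratio of 1.53 (1.19 to 1.99). UBE2B, the partner of the DNA damage ligase RAD18, had 132 in TGFb1 and 86.5 in shCtrl, a ratio of 1.52 (1.17 to 2.0). USP53 had 125 in TGFb1 and 83.0 in shCtrl, a ratio of 1.5 (1.15 to 1.99). UBE2Q2 had 64.9 in TGFb1 and 43.2 in shCtrl, a ratio of 1.5 (1.03 to 2.24). USP21 was highest by ratio, 2.73 (1.04 to 9.05), on 28 and 5 reads. The remaining 12 called higher had ratios between 1.14 and 1.42, led by USP15 at 1.42 (1.13 to 1.81), USP47 at 1.41 (1.21 to 1.65) and UBE2W, which modifies N-termini, at 1.37 (1.02 to 1.87). The calls of UBE2D1, USP53, UBE2Q2, USP15 and UBE2W on this side were lost with the GC trend subtracted. UBE2W then had 1.15 (0.851 to 1.56).

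On the lower side, USP5, which takes apart free ubiquitin chains, had 54.1 in TGFb1 and 92.3 in shCtrl, a ratio of 0.586 (0.430 to 0.800). UBE2M, the main NEDD8 E2, had 9.68 in TGFb1 and 21.0 in shCtrl, a ratio of 0.460 (0.223 to 0.946), on 17 and 18 reads, and its call was lost with the GC trend subtracted. The pseudogene UBE2Q2P1, with 2.28 in TGFb1 and 9.35 in shCtrl on 4 and 8 reads, also counts as lower, but its mean passed 5 only through shPJA1 and shCtrl, so nothing is read from that call. At a mean of at least 20, 2 genes had an interval below 1, beside 10.6% of all such genes. The partners of USP5 in chain recycling and at the proteasome were not called, with a ratio of 1.12 for USP13 and 1.10 for USP14. Among the USP genes of TGF-beta receptors and SMADs only USP15, which acts on receptors and on SMAD proteins, was called. USP9X, which removes ubiquitin from SMAD4, had 786 in TGFb1 and 723 in shCtrl, a ratio of 1.09 (0.987 to 1.2). USP11 had a ratio of 1.03 (0.847 to 1.27) and USP4 one of 0.912 (0.721 to 1.16).

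**Figure D2:**
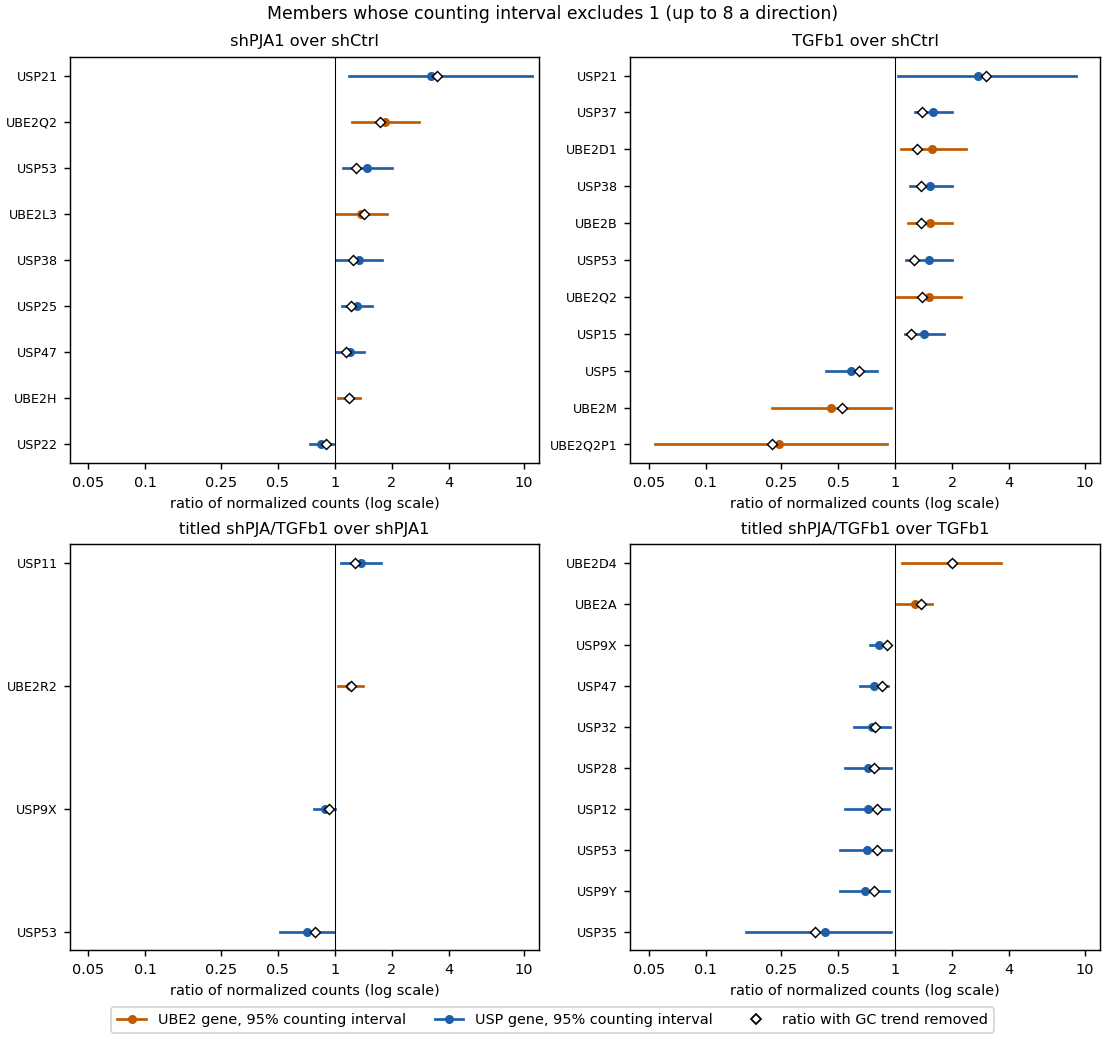
Ratios of normalized counts on a log scale, up to 8 genes a direction, for the named genes whose 95% counting interval (bar) excludes 1, in 4 comparisons of 2 libraries. Diamonds give the ratio after the trend with GC content was subtracted. In TGFb1 over shCtrl most genes lie to the right of 1, and in the library titled shPJA/TGFb1 over TGFb1 8 of 10 lie to the left.

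With the hairpin present, TGF-beta1 went with few called genes, in a comparison of 990698 with 1784689 reads. The comparison without the hairpin used 2848665 and 1363318 reads, and since counting intervals narrow with depth, the counts of called genes of the 2 comparisons are not comparable. Between the library titled shPJA/TGFb1 and shPJA1, 2 of the 73 genes had an interval above 1, beside 4.91% of all genes, and 2 had one below 1, beside 4.31%. Their joint share of 5.48% stood beside 9.21% of all genes. At least 1.5-fold higher was 1 gene, beside 6.96% of all genes, and at least 1.5-fold lower were 4, beside 8.87%. The median log2 ratio was -0.04, and 32 of 73 genes were above 0. USP11, which acts on the TGF-beta type I receptor, had 197 in the library titled shPJA/TGFb1 and 144 in shPJA1, a ratio of 1.37 (1.07 to 1.74). UBE2R2 had 453 in the library titled shPJA/TGFb1 and 375 in shPJA1, a ratio of 1.21 (1.04 to 1.41). USP53 had 88.0 in the library titled shPJA/TGFb1 and 123 in shPJA1, a ratio of 0.714 (0.511 to 0.985). USP9X had 649 in the library titled shPJA/TGFb1 and 735 in shPJA1, a ratio of 0.883 (0.781 to 0.997). USP53 and USP9X were thus lower with TGF-beta1 here, while USP53 was higher with TGF-beta1 in the absence of the hairpin. With the GC trend subtracted, the calls of USP11 and UBE2R2 were kept, and those of USP53 and USP9X were lost.

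These 2 comparisons of TGF-beta1 share no library, so they can be set side by side. The log2 ratios of 30 of the 73 genes (41.1%) had the same sign in both, beside 46.0% of all genes. No gene of the 73 was called in the same direction in both, beside 0.981% of all genes, and 1, USP53, was called in opposite directions, beside 1.93% of all genes. These shares lie near those of all genes. Called without the hairpin, USP37 had a ratio of 1.24 (0.958 to 1.61) with it. USP5 had 71.7 in the library titled shPJA/TGFb1 and 95.4 in shPJA1, a ratio of 0.751 (0.516 to 1.08). For both genes the direction was the same in the 2 pairs, and the second interval included 1. USP38 had a ratio of 0.976 (0.728 to 1.30) with the hairpin, UBE2B one of 1.05 (0.769 to 1.43) and USP47 one of 0.908 (0.753 to 1.09).

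**Figure D3:**
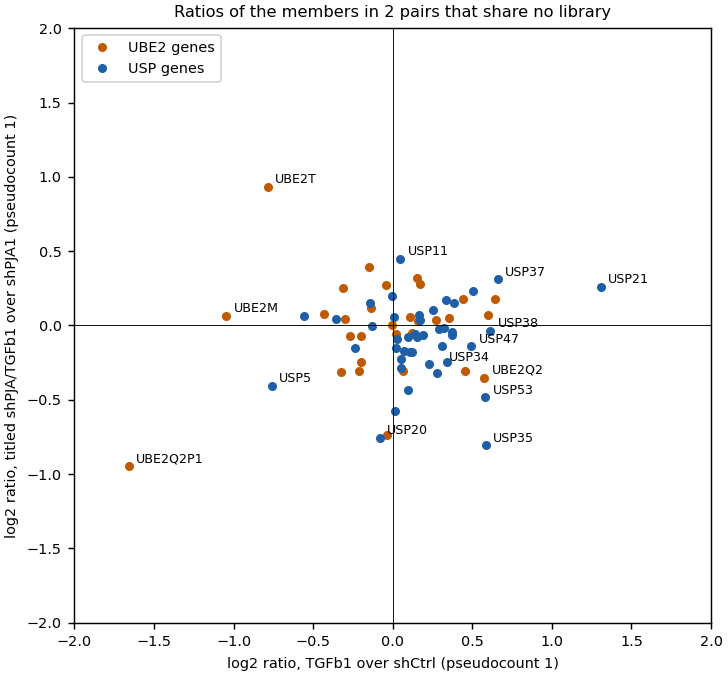
Log2 ratio (1 added to each normalized count) of each of the 73 genes for TGFb1 over shCtrl on the horizontal axis and for the library titled shPJA/TGFb1 over shPJA1 on the vertical axis. Of the 73 points, 30 lie in the quadrants of equal sign, USP37 in the upper right and USP5 in the lower left, and USP53 lies in the lower right.

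In the presence of TGF-beta1, most USP genes stood lower with the hairpin. Between the library titled shPJA/TGFb1 and TGFb1, 2 of the 73 genes had an interval above 1, beside 7.29% of all genes, and 10 had one below 1, beside 7.71%. Their joint share of 16.4% stood beside 15% of all genes. All 10 were USP genes and both genes on the higher side were UBE2 genes. At least 1.5-fold higher were 4 genes, beside 8.3% of all genes, and at least 1.5-fold lower were 2, beside 7.73%. The median log2 ratio was -0.10 for the 73 genes, -0.16 for the USP genes with 9 of 43 above 0, and 0.03 for the UBE2 genes with 15 of 30 above 0. Over all genes the median was -0.01, and 49.4% were above 0. After subtraction of the GC trend the median was -0.03 for the 73 genes, -0.09 for the USP genes and 0.08 for the UBE2 genes. By the treatment label the same numbers, turned round, would be TGF-beta1 over the PJA1 hairpin with water. PJA1 had 9.78 in the library titled shPJA/TGFb1 and 38.2 in TGFb1. Hairpin and TGF-beta1 could then not be told apart in this comparison.

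USP53 had 88.0 in the library titled shPJA/TGFb1 and 125 in TGFb1, a ratio of 0.706 (0.514 to 0.954). USP12, a protease activated by WDR48, had 117 in the library titled shPJA/TGFb1 and 164 in TGFb1, a ratio of 0.716 (0.545 to 0.929). USP28, known for keeping MYC from degradation, had 108 in the library titled shPJA/TGFb1 and 149 in TGFb1, a ratio of 0.721 (0.542 to 0.948). These 3 stood about as far below 1 as each other. USP32, a membrane-bound protease, had 178 in the library titled shPJA/TGFb1 and 235 in TGFb1, a ratio of 0.757 (0.607 to 0.937), and shares 28.2% of its transcript in stretches of 50 bases with other genes. USP47 had 287 in the library titled shPJA/TGFb1 and 369 in TGFb1, a ratio of 0.777 (0.654 to 0.920). The X-linked and Y-linked paralogs USP9X and USP9Y both had intervals below 1, at 0.825 (0.737 to 0.923) and 0.692 (0.512 to 0.923). Genes of high counts completed the list, USP34 at 0.826 (0.753 to 0.905) and USP31 at 0.854 (0.745 to 0.976). USP31 shares 25.5% of its transcript, again in stretches of 50 bases, with another annotated gene. USP35 had the lowest called ratio, 0.426 (0.163 to 0.949), on 7 and 47 reads. On the higher side, UBE2A had 217 in the library titled shPJA/TGFb1 and 171 in TGFb1, a ratio of 1.26 (1.02 to 1.56). NKRF, on the other strand, overlaps 32.1% of its exons. UBE2D4, a broad E2 of the UBE2D group, had 34.2 in the library titled shPJA/TGFb1 and 17.1 in TGFb1, a ratio of 2.0 (1.09 to 3.62), on 21 and 30 reads. With the GC trend subtracted the intervals of USP53, USP12, USP28, USP47, USP9X, USP9Y and USP31 included 1, at 0.908 (0.810 to 1.02) for USP9X and 0.775 (0.573 to 1.03) for USP9Y.

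**Figure D4:**
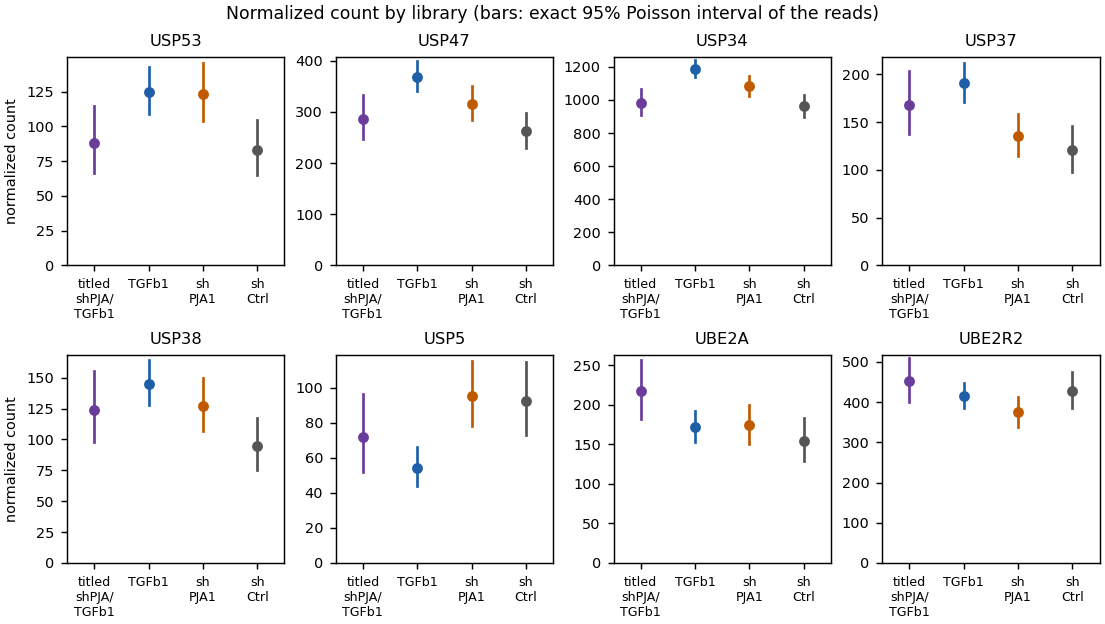
Normalized counts of 8 genes in the 4 libraries, with exact 95% Poisson intervals of the reads as bars and the axis starting at 0. USP53, USP47 and USP34 are higher in TGFb1 and shPJA1 than in the library titled shPJA/TGFb1 and shCtrl, while USP37 is higher and USP5 lower in both libraries named for TGFb1.

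The hairpin and TGF-beta1 ratios of some genes did not add up, at a share near that of all genes. The log2 ratio of TGF-beta1 without the hairpin was subtracted from that with the hairpin, which gives 0 where the 2 ratios are equal. That difference had a counting interval below 0 for 11 of the 73 genes, beside 9.36% of all genes, and above 0 for 4, beside 8.71%. Together these were 20.5% of the 73 genes, beside 18.1% of all genes. USP53 had the most negative called value, -1.07 (-1.67 to -0.48), with 88.0 in the library titled shPJA/TGFb1, 125 in TGFb1, 123 in shPJA1 and 83.0 in shCtrl. The single-factor libraries were both high, and the other two lay close together. UBE2Q2 had -0.94 (-1.71 to -0.18), UBE2W -0.76 (-1.42 to -0.11), and USP38 -0.65 (-1.19 to -0.11). Among the more deeply covered genes, USP47 had -0.63 (-0.98 to -0.29) and USP34 -0.45 (-0.63 to -0.27). USP34 had 983 in the library titled shPJA/TGFb1, 1189.7 in TGFb1, 1084 in shPJA1 and 962 in shCtrl, the same order as USP47. Above 0 stood UBE2R2 at 0.32 (0.03 to 0.60) and USP22 0.30 (0.01 to 0.59). UBE2T, the E2 of the Fanconi anaemia pathway, had 1.91 (0.02 to 3.80) on 8 to 10 reads a library.

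A difference between libraries in their dependence on GC content ran along with the USP pattern. The median transcript GC content was 44.2% for the 73 genes, 43.6% for UBE2 and 44.5% for USP genes, and 48.2% for all genes. Between TGFb1 and shCtrl the median log2 ratio was -0.02 for UBE2 and 0.15 for USP genes. Between the library titled shPJA/TGFb1 and TGFb1 it was 0.03 for UBE2 and -0.16 for USP genes. Median transcript length was 3126 bases for UBE2 and 5220 for USP genes. Whether GC content or length accounts for the difference between the families was not tested. Over all genes, the smoothed deviation of a library from the mean of the 4, on the log2 scale, was -0.04 at 40% GC in the library titled shPJA/TGFb1, 0.10 in TGFb1, 0.04 in shPJA1 and -0.07 in shCtrl. At 60% GC these deviations were 0.08 in the library titled shPJA/TGFb1, -0.09 in TGFb1, -0.04 in shPJA1 and 0.07 in shCtrl. The order of the libraries at low GC was thus the order of USP53, USP47 and USP34. Between TGFb1 and shCtrl, 29 of the 36 genes of the set with lower GC had a log2 ratio above 0, beside 69.3% of all genes below 44.2% GC, and 20 of the 37 with higher GC, beside 40.4% of all genes above. Between the library titled shPJA/TGFb1 and TGFb1, 7 of the 36 with lower GC were above 0, beside 32.6% of all such genes, and 17 of the 37 with higher GC, beside 58.3%.

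**Figure D5:**
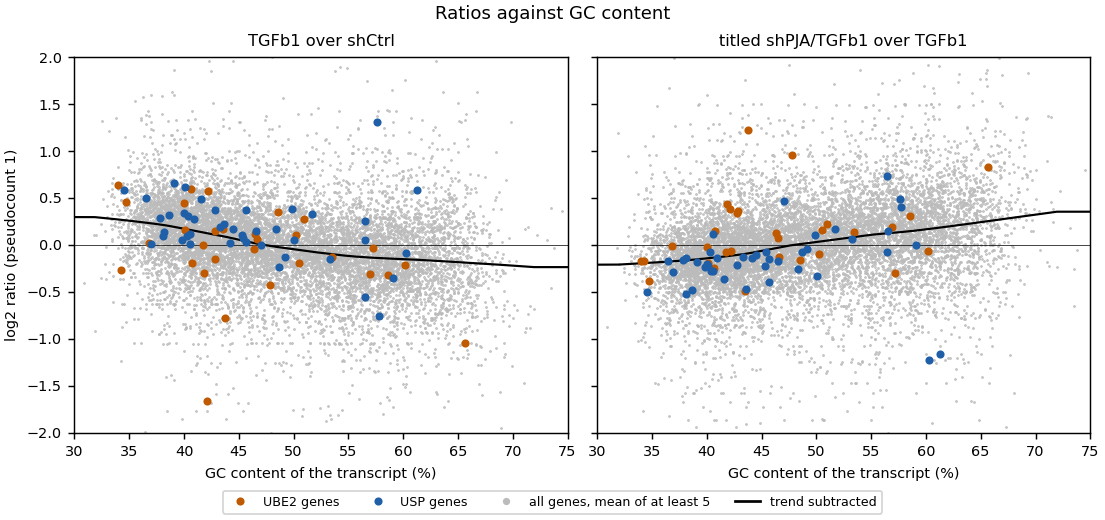
Log2 ratio (1 added to each normalized count) against the GC content of the transcript, for UBE2 genes, USP genes and all genes with a mean of at least 5, in 2 comparisons; the line is the smoothed trend that was subtracted, and genes beyond 2 in either direction are not drawn. The trend falls with GC content in TGFb1 over shCtrl and climbs in the library titled shPJA/TGFb1 over TGFb1, and most of the 73 genes lie in its left part.

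With this trend subtracted, the counts of called genes were 6 above and 1 below between shPJA1 and shCtrl, beside 4.25% and 4.47% of all genes. They were 9 above and 3 below between TGFb1 and shCtrl, beside 7.2% and 8.25%. Between the library titled shPJA/TGFb1 and shPJA1 they were 4 above and 1 below, beside 4.2% and 3.66%, and between that library and TGFb1 3 above and 4 below, beside 6.3% and 5.13%. USP53 was no longer called in any of the 4 comparisons, with ratios of 1.29 (0.961 to 1.74) for shPJA1 over shCtrl and 1.25 (0.954 to 1.66) for TGFb1 over shCtrl. Departures from additivity were then 5 below 0, beside 5.47% of all genes, and 4 above 0, beside 6.67%. The difference of log2 ratios of USP53 was -0.68 (-1.27 to -0.08), still below 0, as were those of USP47 at -0.43 (-0.77 to -0.09) and USP34 at -0.21 (-0.39 to -0.02). The intervals of UBE2Q2 (-1.52 to 0.01), UBE2W (-1.03 to 0.28), USP38 (-0.94 to 0.14) and USP22 (-0.15 to 0.42) then included 0. Those of UBE2R2 and UBE2T stayed above 0. USP37 then had a ratio of 1.39 (1.11 to 1.75) for TGFb1 over shCtrl and 1.32 (1.02 to 1.71) for the library titled shPJA/TGFb1 over shPJA1. It was called higher in both pairs. USP5 had 0.646 (0.474 to 0.882) for TGFb1 over shCtrl and 0.701 (0.482 to 1.01) for the library titled shPJA/TGFb1 over shPJA1. UBE2A had 1.30 (1.03 to 1.63) for the library titled shPJA/TGFb1 over shPJA1 and 1.36 (1.10 to 1.68) for that library over TGFb1, and both rest on the same 133 reads of it. USP15, called between TGFb1 and shCtrl as deposited, had 1.21 (0.956 to 1.53). Between shPJA1 and shCtrl, UBE2Q2 had 1.74 (1.17 to 2.63) and USP21 3.47 (1.27 to 11.8), while the 1 gene then called lower was UBE2F and not USP22, at 0.900 (0.781 to 1.04). UBE2Q2 lost its call between TGFb1 and shCtrl, at 1.38 (0.945 to 2.06). Of the 34 named calls over the 4 comparisons, 17 were kept and 17 were lost. Whether GC content accounts for the pattern was not tested.

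No UBE2 or USP gene passed a count test that used all 4 libraries. The only spread this test has is the departure from additivity, pooled over genes, and not a spread between replicates. Ratios that do not add up widen that spread. An additive fit of hairpin and TGF-beta1 to the recovered reads of 11356 genes (edgeR quasi-likelihood, 1 residual degree of freedom) called 1 gene for the hairpin term, 0.00881% of all, and 4 for the TGFb1 term, 0.0352%. The gene of the hairpin term was PJA1 itself, with a log2 change of -1.79 ± 0.37 (SE; edgeR adjusted p = 0.0174). Of the 73 genes 0 were called for either term by edgeR or by DESeq2. At an unadjusted p under 0.05 edgeR had 2 of the 73 for the hairpin term, beside 2.46% of all genes, and 3 for the TGFb1 term, beside 3.97%. DESeq2 had 0 for both. The 3 for the TGFb1 term were USP5 with a log2 change of -0.61 ± 0.24 (SE; edgeR adjusted p = 0.986), USP37 with 0.50 ± 0.20 (SE; edgeR adjusted p = 0.998) and UBE2Q2P1, which the limit on the mean favours as said, with -1.68 ± 0.72. The 2 for the hairpin term were UBE2D4 with 0.73 ± 0.35 and USP21 with 0.94 ± 0.43. A miss of the threshold with 1 library per condition does not show that a gene did not differ.

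The upstream part of the pathway was read from fixed lists of E1 enzymes and of ubiquitin genes. Between TGFb1 and shCtrl, 3 of 7 E1 genes were called higher, beside 10.8% of all genes, and 0 lower, beside 9.29%. Between shPJA1 and shCtrl 2 were called higher, beside 5.85%, and 0 lower, beside 5.23%. With the GC trend subtracted these counts were 3 and 0 between TGFb1 and shCtrl, beside 7.2% and 8.25% of all genes. They were 1 and 0 between shPJA1 and shCtrl, where UBA6 lost its call, beside 4.25% and 4.47%. UBA1, the main ubiquitin E1, had 507 in the library titled shPJA/TGFb1, 464 in TGFb1, 441 in shPJA1 and 355 in shCtrl, so that shCtrl was lowest. UBA6, the E1 that charges UBE2Z, had 256 in the library titled shPJA/TGFb1, 316 in TGFb1, 277 in shPJA1 and 216 in shCtrl. UBA2, a subunit of the SUMO E1, had 97.8 in the library titled shPJA/TGFb1 and 166 in TGFb1, a ratio of 0.590 (0.439 to 0.782), and 141 in shPJA1 and 119 in shCtrl. Of 7 ubiquitin and ubiquitin-like genes, 1 was called lower and 0 higher both between TGFb1 and shCtrl and between shPJA1 and shCtrl, against the same shares of all genes. It was SUMO3, a ubiquitin-like modifier, with 176 in the library titled shPJA/TGFb1, 157 in TGFb1, 168 in shPJA1 and 212 in shCtrl. Its ratio was 0.740 (0.612 to 0.898) for TGFb1 over shCtrl and 0.796 (0.645 to 0.982) for shPJA1 over shCtrl. Corrected for the GC trend it stayed called between TGFb1 and shCtrl, at 0.769 (0.635 to 0.932), and not between shPJA1 and shCtrl, at 0.826 (0.669 to 1.02).

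Close relatives were also compared within each library. USP25 over USP28, paralogs with shared domains, had a ratio of 2.27 in the library titled shPJA/TGFb1, 1.89 in TGFb1, 2.25 in shPJA1 and 1.74 in shCtrl. The ratio of USP4 to USP15 was 0.787 in the library titled shPJA/TGFb1, 0.720 in TGFb1, 0.927 in shPJA1 and 1.12 in shCtrl. UBE2A over UBE2B, which encode near-identical proteins, had a ratio of 1.96 in the library titled shPJA/TGFb1, 1.30 in TGFb1, 1.65 in shPJA1 and 1.78 in shCtrl. UBE2D2 over UBE2D3 had 0.806 in the library titled shPJA/TGFb1, 0.870 in TGFb1, 1.13 in shPJA1 and 1.13 in shCtrl. USP4 over USP15 and UBE2D2 over UBE2D3 were lower in both libraries named for TGFb1 than in the other two, while USP25 over USP28 was higher in both libraries with the PJA1 hairpin. These ratios of counts are not scaled for length and have no test.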

How the data were processed

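The 4 HepG2 libraries were prepared from TRIZOL-extracted total RNA with a TruSeq kit, per the labels' protocols. Per the submitters' processing notes, Trimmomatic, FastQC, Cufflinks and TopHat2 2.0.10 served in the upstream steps. The build and annotation behind the counts were not given in the sources used here, nor was use of strand. The authors' deposited table is named for FPKM, but its values are a signal of another kind. In each library 100% of them are whole multiples of 1 step, within a tolerance of 1e-06, so the deposited signal is the read number of each gene over a library-wide factor, not scaled for length. These factors were 0.613 in the library titled shPJA/TGFb1, 1.76 in TGFb1, 1.11 in shPJA1 and 0.856 in shCtrl. Values are called normalized counts, and dividing out the step gave back the reads. The planned unit was FPKM, and the same comparisons were run on normalized counts. The table held 0 unused columns of values.

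The members and the lists were chosen with earlier results of these data known. Some genes of the ubiquitin system are not reported here, 1 of which remains in the counts over the 73 members. Groups follow the library titles. Ratios are of normalized counts, with exact conditional 95% intervals of 2 Poisson counts. PCR copies are not independent molecules, so the intervals cover counting error only. Counts at 1.5-fold use log2 of the value plus a pseudocount of 1, which understates the change of low genes. Named are the genes of highest and lowest mean, up to 8 called genes a direction in each comparison, the 4 USP genes known from TGF-beta signalling, the 4 largest departures from additivity a direction, leading genes of functional groups and paralog pairs. Other genes, including SUMO3, USP31, USP34 in the ratios to TGFb1 and the repeat of USP37 in the second pair, were chosen after their values were seen.

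Transcript length and GC content are of 1 GENCODE release 29 transcript per gene, matched for 73 of 73 members and 98.4% of the 8575 genes with a mean of at least 20. The GC trend is a lowess fit (span 0.3) of each library's log2 deviation. A count test was run on the recovered reads with edgeR 4.0.16 in R 4.3.3 (TMM scaling, at least 20 reads over the 4 libraries, Benjamini-Hochberg adjustment, threshold 0.05), and with DESeq2 1.42.0. edgeR pooled the spread, giving a coefficient of variation of 10.9%, and called 1 gene for the hairpin and 4 for TGFb1. The steps were tested on simulated counts. The ratios were computed with pandas 2.3.3, numpy 2.4.6, scipy 1.17.1 and statsmodels 0.14.6 in Python 3.11.15, and drawn with matplotlib 3.10.9. Depth ran between 990698 and 2848665 reads. The floor for a count of 0, 3 reads, is a normalized count of 4.89 in the library titled shPJA/TGFb1 and 1.71 in TGFb1.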

Additional observations from a re-analysis of the deposited data

Results flagged for a closer look

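The hairpin ratios of 3 USP genes lay on opposite sides of 1 with and without TGF-beta1, with both counting intervals excluding 1. They are 4.11% of the 73 genes, beside 2.2% of all genes. Ratios of the same sign in this pair of comparisons numbered 27 of the 73 genes (37.0%), beside 44.8% of all genes. For the library titled shPJA/TGFb1 over TGFb1 the ratio of USP53 was 0.706, beside 1.49 for shPJA1 over shCtrl. For USP47 these ratios were 0.777 and 1.21, and for USP34 they were 0.826 and 1.13. The TGF-beta1 ratio of USP53 was 0.714 for the library titled shPJA/TGFb1 over shPJA1 and 1.5 for TGFb1 over shCtrl. With 1 library per condition these differences were not tested. The 3 genes had the same order of libraries as the GC trend at 40% GC, and with the trend subtracted USP53 and USP47 no longer had opposite intervals that both excluded 1, nor did USP34. The part of the trend in the result was not tested.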

How the results depend on the processing

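Each value was recomputed with other pseudocounts, filters, scalings, folds and GC corrections. The 34 log2 ratios of named genes kept their sign and stayed inside their counting interval in all 224 recomputed values, but with the GC trend subtracted the intervals of 17 of the 34 included 1. Genes at 1.5-fold between shPJA1 and shCtrl (3) numbered 5 with no filter and 1 at 2-fold. Between TGFb1 and shCtrl (9) they numbered 5 at a mean of at least 20 and 3 at 2-fold. Between the library titled shPJA/TGFb1 and shPJA1 (5) they numbered 3 with a pseudocount of 5, 14 with no filter, 1 at a mean of at least 20 and 0 at 2-fold. Between that library and TGFb1 (6) they numbered 11 with no filter, 2 at a mean of at least 20 and 3 at 2-fold. Intervals that excluded 1 between shPJA1 and shCtrl (11) numbered 7 with the GC trend subtracted and 6 with GC and length trends subtracted. Between TGFb1 and shCtrl (23) they numbered 12 with either subtraction, and between the library titled shPJA/TGFb1 and TGFb1 (12) they numbered 7 with the GC trend subtracted. The median log2 ratio for the library titled shPJA/TGFb1 over shPJA1, -0.04, was 0.0009 with the GC trend and 0.0006 with both trends subtracted. Departures from additivity (15) numbered 9 with the GC trend subtracted. For the hairpin term, edgeR's 1 gene became 0 with DESeq2 and 3 with the GC trend as an offset, and for the TGFb1 term 4 became 0 and 27, with 0 of the 73 genes among them. The GC and length trends, the size factors without the library titled shPJA/TGFb1, and the GC correction of the departures were chosen after seeing the data. No paired analysis was possible because each condition has 1 library and no number pairs libraries.

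Depth limits the low genes, since 9 of the 73 had under 20 reads in at least 1 library. No value has a replicate, and the place of the library titled shPJA/TGFb1 rests on its title. Reads from shared or overlapping sequence cannot be told apart for UBE2F, USP31, USP32, UBE2N, USP37 and UBE2A.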

Other observations

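Deubiquitinases outside the USP family were read from a fixed list. Of 19 genes of the OTU, UCH, MJD and CYLD families, 5 were called higher and 2 lower between TGFb1 and shCtrl, beside 10.8% and 9.29% of all genes. Between the library titled shPJA/TGFb1 and TGFb1, 0 were called higher and 6 lower, beside 7.29% and 7.71%. With the GC trend subtracted, 2 were called higher and 1 lower between TGFb1 and shCtrl, beside 7.2% and 8.25% of all genes. Between the library titled shPJA/TGFb1 and TGFb1, 0 were then called higher and 3 lower, beside 6.3% and 5.13%. YOD1, an OTU protease of the endoplasmic reticulum pathway, had 66.8 in the library titled shPJA/TGFb1, 104 in TGFb1, 67.5 in shPJA1 and 40.9 in shCtrl. Its ratio of 2.55 (1.77 to 3.77) for TGFb1 over shCtrl was 2.15 (1.49 to 3.18) with the GC trend subtracted, while for the library titled shPJA/TGFb1 over shPJA1 it was 0.990 (0.659 to 1.47). OTUB1, which holds back UBE2N without cutting chains, had 60.4 in TGFb1 and 97.0 in shCtrl, a ratio of 0.622 (0.463 to 0.840). OTUD1 had 13.5 in shPJA1 and 28.1 in shCtrl, a ratio of 0.481 (0.235 to 0.956).

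Among 6 metalloproteases of the JAMM family, 2 were called higher and 0 lower between shPJA1 and shCtrl, beside 5.85% and 5.23% of all genes. The counts were the same between TGFb1 and shCtrl, beside 10.8% and 9.29%. Subtraction of the GC trend left 1 called higher in each, beside 4.25% of all genes between shPJA1 and shCtrl and 7.2% between TGFb1 and shCtrl. BRCC3, which cuts lysine 63 chains in the BRCA1-A and BRISC complexes, had 39.1 in the library titled shPJA/TGFb1, 54.1 in TGFb1, 63.9 in shPJA1 and 28.1 in shCtrl. Its ratio was 2.28 (1.42 to 3.79) for shPJA1 over shCtrl and 0.612 (0.368 to 0.984) for the library titled shPJA/TGFb1 over shPJA1. After that subtraction these were 2.14 (1.33 to 3.55) and 0.644 (0.388 to 1.04). Of 8 cofactors of USP proteases, 1 was called higher and 1 lower between TGFb1 and shCtrl, beside 10.8% and 9.29% of all genes. WDR48, the activator of USP1, USP12 and USP46, had 105 in TGFb1 and 71.3 in shCtrl, a ratio of 1.47 (1.09 to 1.997). ATXN7L3, the cofactor of USP22, had 112 in TGFb1 and 147 in shCtrl, a ratio of 0.758 (0.603 to 0.956). Corrected for the GC trend, WDR48 had 1.35 (1.01 to 1.83) and ATXN7L3 0.832 (0.662 to 1.05), which is not called. Of 6 E2 genes with other names, 1 was called higher and 0 lower between TGFb1 and shCtrl, beside 10.8% and 9.29% of all genes. It was BIRC6, a giant E2 and inhibitor of apoptosis, with 1173.8 in TGFb1 and 979 in shCtrl. Its ratio was 1.2 (1.11 to 1.30), or 1.12 (1.03 to 1.21) with the GC trend subtracted. After that subtraction 2 of the 6 were called higher and 0 lower, beside 7.2% and 8.25% of all genes.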
